A study of Mus musculus with 12 samples.

Results

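The 10 genes described here are the SOX transcription factor genes Sox1, Sox2, Sox4, Sox7, Sox9, Sox11, Sox14, Sox17, Sox18 and Sox21. They were taken by gene symbol from the 55536 genes of the annotation, which holds 19 SOX genes in all. The rule itself uses no measured value, but the members were chosen with earlier results of these data known. They were followed in bulk RNA-seq of primary mouse oligodendrocyte precursor cells (OPCs), in 12 libraries that fall into 4 groups of 3. Ctr cells received neither agent. EZH2i cells received EPZ011989, a small-molecule inhibitor of the histone methyltransferase EZH2, at 1.5 µM for 4 days with renewal every 48 h. IFN-γ cells received interferon-γ at 100 ng/ml for the last 6 h, and IFN-γ + EZH2i cells received the inhibitor for 4 days and then both agents for 6 h. All 4 groups came from Sox10GFP+ OPCs of pups aged P4 to P6, in which a Sox10:Cre transgene switches on an EGFP reporter, so the sort follows past Cre activity and not current Sox10 level (the protocol names selection by CD140a beads as the other route). The Cre line was kept on C57BL/6j and the reporter line on a mixed C57BL/6 and CD1 background. Brains of several pups were pooled for each preparation, the replicates came from different litters, and every group was grown in the same proliferation medium with PDGFaa and bFGF. The labels also give the mouse model as EAE, the experimental autoimmune encephalomyelitis model, although the protocol describes cultures from pups only.

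SOX proteins bind DNA through a conserved high-mobility-group box and are sorted into subgroups by sequence. The SOXB1 factors (here Sox1 and Sox2) hold neural progenitors in an undifferentiated state, and the SOXB2 factors (Sox14 and Sox21) act mainly as repressors at related sites. The SOXC factors (here Sox4 and Sox11) act in newly committed neurons and other immature cells. Sox9 of the SOXE subgroup acts in cartilage and in the onset of gliogenesis. The SOXF factors (Sox7, Sox17 and Sox18) act in blood vessels and, for Sox17, in endoderm. In the oligodendrocyte lineage the best known members are Sox10 and Sox8 (SOXE) and Sox5 and Sox6 (SOXD), which are used here only as context. EZH2 is the catalytic subunit of Polycomb repressive complex 2, which deposits H3K27me3, a mark that covers the CpG-rich promoters of many developmental regulator genes.

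The libraries held 17403893 to 66546052 assigned reads, and every library correlated with the others of its group at a median r of 0.962 to 0.973 across genes. The labelled cell type was borne out by its markers: the 8 OPC markers (such as Pdgfra, Cspg4 and Olig2) were all detected, and their summed level, in CPM (counts scaled to the library total), was 8560 to 8720 in Ctr, 7190 to 7680 in EZH2i, 5640 to 7620 in IFN-γ and 4750 to 5690 in IFN-γ + EZH2i. With IFN-γ, Pdgfra (adjusted p = 0.0141 against Ctr) and Cspg4 (adjusted p = 0.00245) fell. The 8 neuron and neuroblast markers summed to 58.3 to 78.9 CPM in Ctr, 70.2 to 116 in EZH2i, 710 to 1320 in IFN-γ and 970 to 1690 in IFN-γ + EZH2i, and in both groups with IFN-γ Tubb3 gave most of the sum. By gene, Syt1, Tubb3 and Stmn2 were higher in IFN-γ against Ctr (adjusted p under 0.05, as for 6.65% of all genes in that direction). For EZH2i against Ctr, 7 of the 8 estimates were higher (median log2 fold change 0.79, beside 0.006 for all genes). None of these had an adjusted p under 0.05. The 8 mature oligodendrocyte markers summed to 1890 to 2330 CPM in Ctr, 1110 to 1640 in EZH2i, 1770 to 2100 in IFN-γ and 1070 to 1620 in IFN-γ + EZH2i, lower with the inhibitor without overlap. The 8 pericyte and vascular leptomeningeal markers summed to 1.17 to 2.15, 2.5 to 3.75, 3.48 to 5.31 and 5.56 to 7.48 CPM in the same order. The part of these markers in the results below was not tested. The 8 astrocyte markers lay between 1450 and 3380 CPM over the 12 libraries, with ranges that overlapped among the 4 groups, and the 8 microglia markers lay between 6.7 and 11.1 CPM. In bulk RNA, a smaller number of cells of a type and less RNA per cell cannot be told apart.

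As TPM, the deposited transcript level scaled for length and for the library total, the 10 genes made up 31.6% ± 1.5 (SD, n = 3) of all SOX transcripts in Ctr, 35.3% ± 1.6 in EZH2i, 41.7% ± 6.7 in IFN-γ and 46.7% ± 5.4 in IFN-γ + EZH2i. Their summed TPM was 145.6 ± 20.5, 168.3 ± 39.3, 194.9 ± 40.3 and 166.4 ± 34.9 in the same order. From EZH2i to IFN-γ + EZH2i the share was thus higher without a higher sum of TPM as deposited. The median TPM ratio of all tested genes between these 2 groups was 0.87, so the sums alone do not show whether the total changed. In Ctr, Sox2 was the highest of the 10 (85.8 TPM ± 11.3), followed by Sox4 (32.5 ± 4.65), Sox11 (11.5 ± 1.97), Sox21 (10.6 ± 2.36), Sox9 (4.32 ± 1.20) and Sox1 (0.81 ± 0.53). Neighbours in this order did not overlap in range, except Sox11 (9.26 to 12.9 TPM) and Sox21 (7.87 to 12.2), which did not differ beyond their spread. Sox7 (0.0753 TPM ± 0.0458) and Sox18 (0.0224 ± 0.0285) overlapped near the limit of detection, and no read was assigned to Sox14 or Sox17 in Ctr. The order of the upper 6 was the same in EZH2i. In the IFN-γ group Sox11 (38.8 to 47.2 TPM) stood above Sox4 (20.3 to 37.1), and in IFN-γ + EZH2i it again stood above Sox4 (33.8 to 39.9 against 17.7 to 32.5), while Sox1 (2.34 to 6.75 TPM) overlapped Sox9 (3.11 to 9.74).

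**Figure D1:**
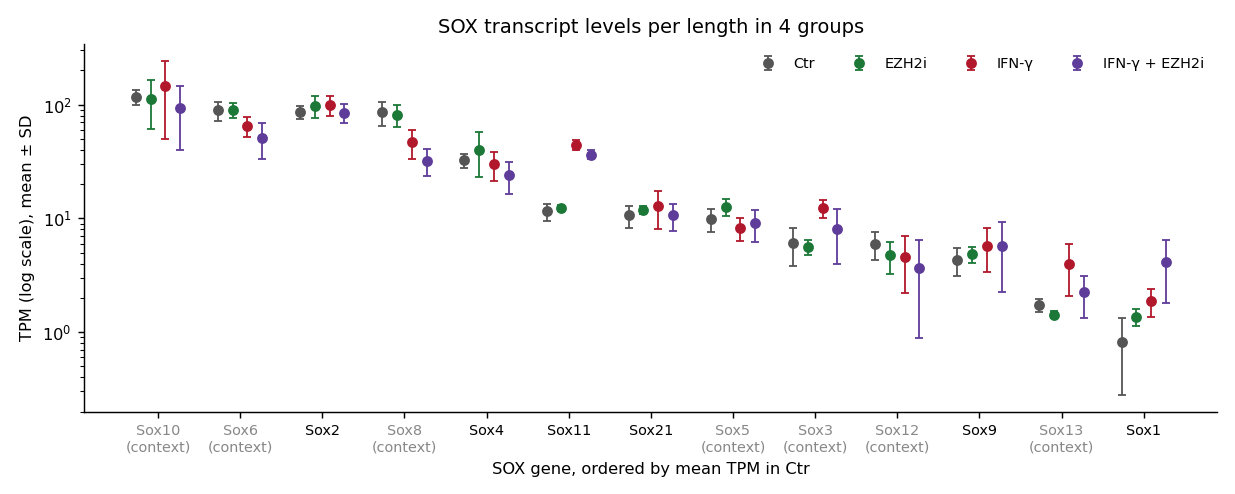
TPM on a log scale (mean ± SD, n = 3) for the 13 SOX genes with the highest Ctr level, in the 4 groups, ordered by mean TPM in Ctr; genes in grey are SOX genes outside the 10. Sox11 lies at 11.5 and 12.3 TPM without IFN-γ and at 44.2 and 36.4 TPM with it, and Sox1 lies at 0.81 TPM in Ctr and at 4.12 TPM in IFN-γ + EZH2i.

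Of the 10 genes, 7 passed the filter on low counts and were tested among 18995 genes (edgeR quasi-likelihood test, Benjamini-Hochberg over all genes tested, threshold 0.05). Sox14, Sox17 and Sox18 were too low to enter. EZH2i against Ctr called none of the 7, where 0.405% of all genes tested were called, and no member had an unadjusted p under 0.05. IFN-γ + EZH2i against IFN-γ also called none, where 0.353% of all genes were called, and Sox1 was the single member with an unadjusted p under 0.05. IFN-γ against Ctr called 1 of the 7, Sox11, where 8.75% of all genes were called (6.65% higher and 2.1% lower). IFN-γ + EZH2i against EZH2i called 2 of the 7, Sox1 and Sox11, both higher, where 8.07% of all genes were called (5.9% higher and 2.17% lower). With 7 genes, 1 or 2 calls are too few to set against these shares. The median log2 fold change of the 7 was -0.13, -0.12, 0.22 and 0.43 in these 4 comparisons, beside 0.01 or less in size for all genes.

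**Figure D2:**
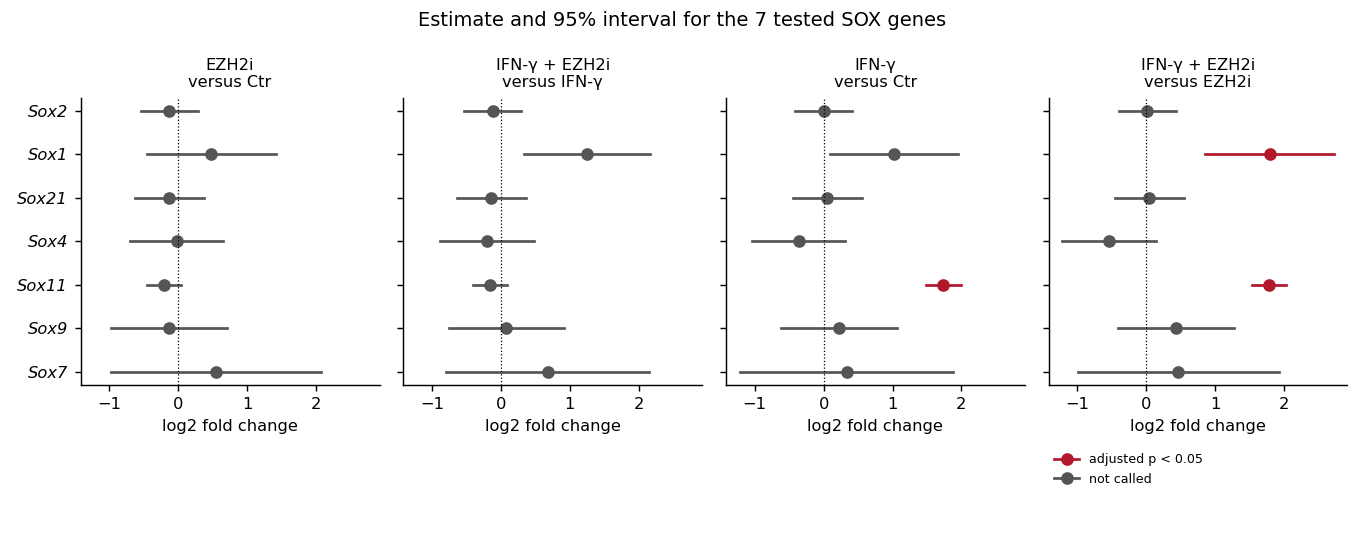
Estimated log2 fold change with its 95% interval for the 7 tested SOX genes in 4 comparisons; red marks an adjusted p under 0.05 over all 18995 genes. Sox11 (1.74 and 1.78) in the comparisons of IFN-γ and Sox1 (1.79) in IFN-γ + EZH2i against EZH2i are called, and the intervals of Sox2, Sox21, Sox4, Sox9 and Sox7 include 0 throughout.

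Sox11, a SOXC factor of immature neurons and progenitors, was the member that changed most clearly, and it changed with IFN-γ. It is a gene of 1 exon on chromosome 12 (27334264 to 27342574, minus strand, GRCm38). Its level in replicates 1, 2 and 3 was 148.0, 146.5 and 132.2 CPM in Ctr and 130.3, 118.1 and 122.0 CPM in EZH2i. With IFN-γ it was 534.4, 446.5 and 442.7 CPM, and with IFN-γ + EZH2i it was 448.5, 392.8 and 432.7 CPM. All 6 libraries with IFN-γ were thus far above all 6 without it. Sox11 rose 3.34-fold with IFN-γ alone (95% interval 2.80 to 3.97; log2 fold change 1.74, SE 0.115, adjusted p = 7.07e-07) and 3.44-fold with IFN-γ after the inhibitor (2.89 to 4.09; 1.78, SE 0.115, adjusted p = 5.51e-07). The groups did not overlap in either comparison, as for 13.5% and 11.8% of all genes in the higher direction. Between libraries of the same replicate number, the ratio lay between 3.05 and 3.61 without the inhibitor and between 3.33 and 3.55 with it. As a share of the summed TPM of the 10 genes, Sox11 took 7.9% ± 0.9 (SD, n = 3) in Ctr, 7.5% ± 1.4 in EZH2i, 23.0% ± 2.7 in IFN-γ and 22.3% ± 2.9 in IFN-γ + EZH2i.

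The inhibitor moved Sox11 far less than IFN-γ did. In CPM the 3 EZH2i libraries all lay below the 3 Ctr libraries, as for 5.34% of all genes in that direction, but as TPM the ranges overlapped (up to 13 in EZH2i against 9.26 to 12.9 in Ctr). The test gave a fold of 0.868 (95% interval 0.733 to 1.03; adjusted p = 0.83). Between IFN-γ + EZH2i and IFN-γ the ranges overlapped, with a fold of 0.895 (0.756 to 1.06; adjusted p = 0.982). The response to IFN-γ had nearly the same size with and without the inhibitor: the interaction of both agents on Sox11 was 0.04 on the log2 scale (95% interval -0.30 to 0.39; adjusted p = 1).

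Sox4, the other SOXC gene (chromosome 13, 28948919 to 28953713, minus strand), is known from many immature and migrating cell types and did not follow Sox11. It stood at 273.0, 253.7 and 170.8 CPM in Ctr and at 335.7, 195.5 and 155.0 CPM in EZH2i. With IFN-γ it stood at 237.6, 173.7 and 131.2 CPM, and with IFN-γ + EZH2i at 207.0, 137.2 and 128.0 CPM. The 4 group ranges overlapped one another, and replicate 3 was the lowest library of every group. The fold was 0.778 for IFN-γ against Ctr (95% interval 0.486 to 1.25; adjusted p = 0.624) and 0.688 for IFN-γ + EZH2i against EZH2i (0.430 to 1.10; adjusted p = 0.451). Within each replicate number, however, the IFN-γ library was the lower of the pair: the ratios were 0.617, 0.702 and 0.826 after the inhibitor and 0.870, 0.685 and 0.768 without it. With replicate number added to the fit as a block, IFN-γ + EZH2i against EZH2i gave a log2 fold change of -0.50 for Sox4 (SE 0.115, adjusted p = 0.00885), so that this call rests on the pairing. For the inhibitor the folds were 0.984 (0.615 to 1.57) without and 0.870 (0.544 to 1.39) with IFN-γ, and neither was called.

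The sequences upstream of both SOXC genes of the 10 are shown because the genes differed in their response to IFN-γ and in their CpG content. Both come from RefSeq windows (GRCm38.p6, minus strand) and lie outside the annotated genes: for Sox11 the 250 bases before the RefSeq start, which is itself upstream of the gene start given above, and for Sox4 the part of the window upstream of the gene start given above. They are written 5′ to 3′ with CpG dinucleotides in capitals, at chr12:27342719-27342968 with 17 CpG in 250 bases for Sox11 and at chr13:28953714-28953949 with 10 CpG in 236 bases for Sox4.
Sox11: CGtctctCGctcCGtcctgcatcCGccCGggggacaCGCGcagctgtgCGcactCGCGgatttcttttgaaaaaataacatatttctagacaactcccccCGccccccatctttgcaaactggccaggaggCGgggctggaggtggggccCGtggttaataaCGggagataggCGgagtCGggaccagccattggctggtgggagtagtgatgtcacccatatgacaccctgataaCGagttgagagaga
Sox4: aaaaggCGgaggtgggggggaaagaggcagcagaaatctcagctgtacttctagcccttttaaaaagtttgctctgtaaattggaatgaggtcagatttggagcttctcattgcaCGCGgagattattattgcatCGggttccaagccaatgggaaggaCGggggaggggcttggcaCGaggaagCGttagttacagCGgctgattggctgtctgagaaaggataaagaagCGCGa
Neither full window of 300 bases held the gamma-activated sequence TTCNNNGAA, which 8.3% of all 32851 windows hold, nor the core of the interferon-stimulated response element (GAAA, any 2 bases, GAAA), which 3.44% hold on either strand. These matches concern only the letters of this short window.

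Sox2 of the SOXB1 subgroup, a factor of pluripotent and neural stem cells that OPCs keep, was among the steadiest of the 10 (chromosome 3, 34650405 to 34652461, plus strand). It measured 270.7, 262.9 and 200.5 CPM in Ctr, 266.7, 225.3 and 177.7 CPM in EZH2i, 292.7, 241.9 and 199.3 CPM in IFN-γ, and 258.9, 218.1 and 199.4 CPM in IFN-γ + EZH2i. All 4 ranges overlapped. The 4 folds lay between 0.912 and 1.01 with none called, and their 95% intervals together ran from 0.685 to 1.34, so changes within those bounds cannot be told from none at this depth and n. The long noncoding gene Sox2ot spans Sox2 on the same strand and stood at 45.9, 36.2, 35.0 and 27.2 CPM on average in Ctr, EZH2i, IFN-γ and IFN-γ + EZH2i, with no call in any comparison.

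Sox1, the other SOXB1 gene of the 10 and a marker of neural progenitors (chromosome 8, 12395295 to 12400126, plus strand), was low in Ctr and highest where both agents were present. It measured 4.503, 9.598 and 3.003 CPM in Ctr, 7.83, 8.96 and 6.60 CPM in EZH2i, and 13.71, 11.99 and 8.38 CPM in IFN-γ. In IFN-γ + EZH2i it measured 43.37, 20.51 and 17.07 CPM, and all 3 of these libraries stood above the other 9. Sox1 rose 3.46-fold in IFN-γ + EZH2i against EZH2i (95% interval 1.81 to 6.60; log2 fold change 1.79, SE 0.427, adjusted p = 0.0214). This call was lost without replicate 1 (adjusted p = 0.0702), 2 (0.0586) or 3 (0.0904) of EZH2i and without replicate 1 of IFN-γ + EZH2i (0.082, log2 fold change 1.25).

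Against IFN-γ alone, Sox1 was 2.38-fold higher with the inhibitor (1.26 to 4.49). The groups did not overlap, as for 6.08% of all genes in this direction, but the adjusted p was 0.451 (unadjusted p = 0.0118). With replicate number as a block in the fit, the log2 fold change was 1.21 (SE 0.29, adjusted p = 0.0391), and each IFN-γ + EZH2i library was higher than the IFN-γ library of its number, by 3.16, 1.71 and 2.04 times. IFN-γ against Ctr gave 2.03-fold (1.06 to 3.88; adjusted p = 0.213) with overlapping groups, because Ctr replicate 2 (9.598 CPM) lay above IFN-γ replicate 3 (8.38 CPM). The inhibitor alone gave 1.40-fold (0.731 to 2.66; adjusted p = 0.961). The interaction was 0.77 on the log2 scale (95% interval -0.53 to 2.07; adjusted p = 1), so a joint effect beyond the product of the separate ones was not detectable with 3 libraries a group. Sox1ot, a noncoding gene that spans Sox1 on the same strand and may share reads with it, averaged 0.370, 0.877, 1.09 and 1.62 CPM in Ctr, EZH2i, IFN-γ and IFN-γ + EZH2i, and rose with IFN-γ against Ctr (log2 fold change 1.48, SE 0.374, adjusted p = 0.028).

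**Figure D3:**
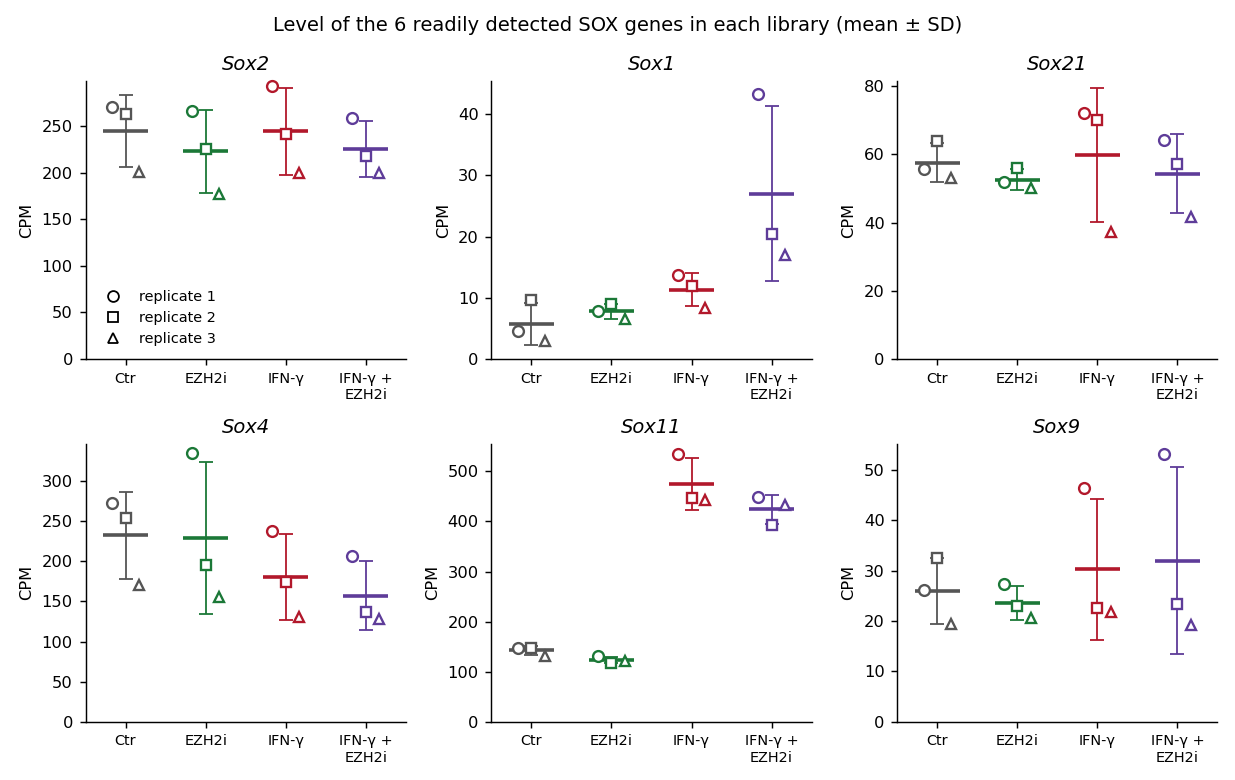
CPM of the 6 readily detected SOX genes in each of the 12 libraries by group; lines and bars give the mean ± SD of 3 libraries and the marker shape gives the replicate number. The 6 libraries with IFN-γ sit at 392.8 CPM or more for Sox11 and the 6 without at 148.0 CPM or less, and the 3 libraries with both agents are the highest for Sox1.

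The SOXB2 genes were a contrast in level. Sox21, a repressor that counteracts the SOXB1 factors in neural progenitors (chromosome 14, 118233232 to 118237030, minus strand), measured 55.7, 64.0 and 53.0 CPM in Ctr, 51.9, 55.9 and 50.1 CPM in EZH2i, 72.0, 70.2 and 37.3 CPM in IFN-γ, and 64.2, 57.2 and 41.6 CPM in IFN-γ + EZH2i. The ranges overlapped, and the libraries were more widely spread with IFN-γ (37.3 to 72.0 CPM) than in EZH2i (50.1 to 55.9), a difference in spread that was not tested. The 4 folds lay between 0.908 and 1.04, with intervals from 0.643 to 1.47 and no call. The noncoding gene Gm4675, which overlaps the start of Sox21 on the opposite strand, was at 0.581 to 1.10 CPM on average in the groups.

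Sox14, which acts in subsets of neurons (chromosome 9, 99874106 to 99876170, minus strand), received no read in any of the 12 libraries. Over their 462084832 reads a count of 0 allows a level of up to 0.0065 CPM (3 counts over all libraries, counting error only), and it was not detected in any group. Its upstream window is shown because it is CpG-rich although the gene was not detected. It covers chr9:99876171-99876420 (GRCm38.p6, minus strand) with 23 CpG, in capitals, in 250 bases.
Sox14: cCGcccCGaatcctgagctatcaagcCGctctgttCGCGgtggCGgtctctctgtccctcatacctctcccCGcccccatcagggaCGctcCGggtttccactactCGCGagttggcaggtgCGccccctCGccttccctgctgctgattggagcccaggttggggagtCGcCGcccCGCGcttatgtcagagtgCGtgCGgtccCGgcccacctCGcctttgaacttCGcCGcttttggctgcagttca

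Sox9, which precedes Sox10 in glial specification and stays on in astrocytes (chromosome 11, 112782224 to 112787760, plus strand, 3 exons), measured 26.1, 32.5 and 19.4 CPM in Ctr and 27.3, 22.9 and 20.7 CPM in EZH2i. It measured 46.4, 22.7 and 21.8 CPM in IFN-γ and 53.2, 23.5 and 19.2 CPM in IFN-γ + EZH2i. The replicate 1 libraries with IFN-γ were the highest, and the remaining 4 libraries with IFN-γ lay between 19.2 and 23.5 CPM, beside 19.4 to 32.5 CPM in Ctr. No comparison was called, with folds from 0.911 to 1.35 and intervals from 0.509 to 2.41. The astrocyte markers summed to 1450 CPM in replicate 1 of IFN-γ and 2040 CPM in replicate 1 of IFN-γ + EZH2i, against 1510 to 3380 CPM in the other 4 libraries with IFN-γ. In both groups with IFN-γ the replicate 1 library was the highest for all 6 of Sox1, Sox2, Sox4, Sox9, Sox11 and Sox21, and in Ctr and EZH2i it was the highest for Sox2, Sox4 and Sox11. For the summed neuron markers replicate 1 was the highest in all 4 groups, and the part of this in the members' values was not tested.

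The SOXF genes were at the edge of detection. Sox7 (chromosome 14, 63943673 to 63950732, plus strand) received 22, 4 and 11 reads in Ctr, 21, 18 and 33 in EZH2i, 28, 10 and 21 in IFN-γ, and 35, 19 and 15 in IFN-γ + EZH2i. Scaled for depth these are 0.187 to 0.780 CPM in Ctr and 0.373 to 1.50 CPM in IFN-γ + EZH2i, with overlapping ranges. No comparison called Sox7, and its intervals were the widest of the 7 (0.508 to 4.22-fold for EZH2i against Ctr). Sox18 (chromosome 2, 181669836 to 181671640, minus strand) received 0 to 6 reads in a library, 25 in all 12.

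Sox17 (chromosome 1, 4490931 to 4497354, minus strand) received no read in the 6 libraries without the inhibitor. It received 6, 2 and 1 reads in the EZH2i libraries and 3, 0 and 0 in the IFN-γ + EZH2i libraries. The 0 counts allow up to 0.029 CPM over the 3 Ctr libraries and up to 0.022 CPM over the 3 IFN-γ libraries (3 counts over the group), and the EZH2i libraries stood at 0.214, 0.0548 and 0.0152 CPM. Only 4 of the 12 libraries held any read, and 1 held more than 3, so no fold is given. In a fit without the filter, over 31994 genes, Sox17 was not called for EZH2i against Ctr (adjusted p = 0.93, unadjusted p = 0.0413). Of the 9 reads in EZH2i, 7 were assigned to the coding transcript Sox17-202. The 8 endothelial markers, among which SOXF factors act, summed to 14.2 to 21.5 CPM in Ctr, 25.6 to 40.2 in EZH2i, 13.3 to 19.7 in IFN-γ and 21.2 to 36.5 in IFN-γ + EZH2i. These sums came mostly from Flt1 (12.3, 25.4, 10.9 and 22.0 CPM on average) and Kdr, while the defining endothelial genes Cldn5, Pecam1, Cdh5, Tek, Tie1 and Esam each averaged under 1 CPM in every group. Their part in the SOXF counts was not tested.

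**Figure D4:**
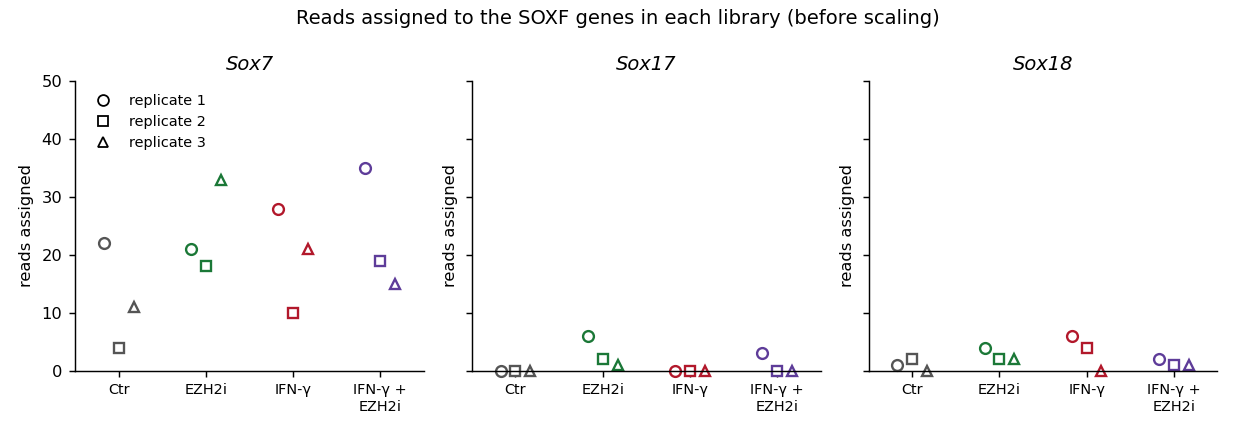
Reads assigned to Sox7, Sox17 and Sox18 in each of the 12 libraries by group, before scaling for depth; marker shape gives the replicate number. Sox7 ranges from 4 to 35 reads with overlapping groups, Sox17 has reads in 4 libraries, all with the inhibitor and with at most 6, and Sox18 has 0 to 6.

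The direction of the small inhibitor effects differs between CPM and TPM as deposited. As TPM, the ratio EZH2i to Ctr was above 1 for Sox2 (1.14), Sox4 (1.24), Sox9 (1.12), Sox11 (1.06) and Sox21 (1.12), where the ratio of CPM was below 1 for each. The median TPM ratio of all tested genes in that comparison was 1.21 (0.28 on the log2 scale), and relative to this median the values were 0.936, 1.02, 0.926, 0.877 and 0.919, so that only Sox4 stayed above 1. For Sox2, Sox9, Sox11 and Sox21 the direction relative to this median was thus the same as in CPM, and for Sox4 it differed. The interval of the fold for EZH2i against Ctr included 1 for each of these 5 genes. Their direction with the inhibitor is for that reason not settled. For IFN-γ against Ctr the TPM ratio of Sox11 was 3.83 (3.35 relative to the median ratio of 1.14), and for IFN-γ + EZH2i against EZH2i it was 2.97 (3.42 relative to 0.87). Sox1 was at 3.03 (3.49 relative to the median) in the latter comparison.

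Of the other 9 SOX genes, 8 were tested. With IFN-γ 2 of them were called lower and none higher in either comparison, where 2.1% of all genes were called lower without the inhibitor and 2.17% with it. Sox6 (SOXD, which holds OPCs immature) went from 458 to 304 CPM (log2 fold change -0.59, SE 0.13, adjusted p = 0.0124). Sox8 (SOXE) went from 330 to 157 CPM (-1.07, SE 0.268, adjusted p = 0.027). After the inhibitor the changes were -0.72 for Sox6 (adjusted p = 0.00343) and -1.10 for Sox8 (adjusted p = 0.0237). Sox10, the driver gene of the reporter, ranged from 301 to 624 CPM in Ctr (median 453) and from 252 to 888 CPM in IFN-γ (median 315), ranges that overlapped (adjusted p = 0.966). Sox3 (SOXB1) was not called, but stood at 12.98 to 21.12 CPM in Ctr and higher without overlap in IFN-γ (25.56 to 37.2). Of all genes, 13.5% did so in that direction. After the inhibitor its ranges overlapped (10.69 to 15.16 CPM in EZH2i and 15.04 to 32.86 in IFN-γ + EZH2i). Against Ctr, 3 of the 8 estimates were higher with IFN-γ, and the median log2 fold change was -0.59. The inhibitor called none of the 8.

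Among 12 genes known from SOXC function and early neurons, IFN-γ against Ctr called 4 higher and none lower (6.65% and 2.1% of all genes). The median log2 fold change was 0.28. The list was chosen with earlier results of these data known, so the counts called in it are a description only. Tubb3, a neuronal tubulin and known SOX11 target, went from 20.7 to 33.6 CPM in Ctr to 669 to 1256 CPM in IFN-γ (34.2-fold, adjusted p = 1.24e-06) and from 22.4 to 42.8 CPM in EZH2i to 920 to 1592 CPM in IFN-γ + EZH2i (36.9-fold, adjusted p = 1.06e-06). Prox1, a homeobox factor of differentiating neurons, rose 2.23-fold (adjusted p = 0.00138) and Mex3a, an RNA-binding protein, 2.04-fold (adjusted p = 0.0261). Stmn2, a regulator of microtubules in growing neurites, rose from 0.106 to 0.855 CPM with IFN-γ (adjusted p = 0.00372) and was 5.83-fold higher again with the inhibitor (0.855 to 5.03 CPM, adjusted p = 0.0321). The early neuronal gene Dcx stayed at 17.8 to 24.8 CPM on average and was not called, and 8 of the 12 estimates were higher. After the inhibitor, IFN-γ called 3 of the 12 higher (Tubb3, Stmn2 and Prox1), where 5.9% of all genes were called higher.

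The counts called in the next 3 lists stand beside 6.65% of all genes called higher and 2.1% lower with IFN-γ against Ctr, and 5.9% and 2.17% after the inhibitor. Of 12 SOXB1 and neural progenitor genes, IFN-γ raised Notch1, the receptor that keeps progenitors undifferentiated (201 to 460 CPM, adjusted p = 0.00635), and after the inhibitor also Id2 (154 to 219 CPM, adjusted p = 0.0461), an inhibitor of basic helix-loop-helix factors, with none lower and a median of -0.20 and -0.13. Of 17 tested partners and cofactors, 1 was called, a share near that of all genes: the corepressor Tle1 rose from 29.9 to 42.3 CPM with IFN-γ (adjusted p = 0.0388) and from 30.8 to 47.0 CPM after the inhibitor (adjusted p = 0.0142). Among 12 tested genes of the SOX9 cartilage and glial list, IFN-γ against Ctr raised Col9a1, a cartilage collagen (52.4 to 88.2 CPM, adjusted p = 0.0457), and lowered Hapln1, a hyaluronan link protein (1.37 to 0.582 CPM, adjusted p = 0.0491), beside Sox6. After the inhibitor, Hapln1 (adjusted p = 0.0422) and Sox6 were lower and none was higher. The inhibitor called none of the genes in these 3 lists. None of the 9 tested SOXF endothelial genes was called in any of the 4 comparisons. With the inhibitor, 8 of the 9 estimates were higher both without and with IFN-γ (median log2 fold change 0.69 and 0.20, beside 0.006 and -0.005 for all genes). Of the 6 tested endoderm genes near SOX17, 3 estimates were higher with the inhibitor in both comparisons. Only Gata6, an endoderm factor, was called. It was higher with the inhibitor without IFN-γ (0.0118 to 2.20 CPM, adjusted p = 0.0202) and with it (0.154 to 2.89 CPM, adjusted p = 0.041), where 0.405% and 0.353% of all genes were called.

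Promoter windows were found for 6 of the 10 genes in the RefSeq table, and Sox7, Sox9, Sox17 and Sox18 were not matched. The windows run from 250 bases before to 50 bases after the RefSeq start. Their CpG counts were 37 for Sox1, 27 for Sox2, 26 for Sox14, 22 for Sox21, 21 for Sox11 and 12 for Sox4, against a median of 7 over 32851 windows. Of all windows, 5.6% held at least as many CpG as that of Sox1, and 39.6% at least as many as that of Sox4. None of the 6 windows held either of the interferon motifs searched, on either strand. Of the genes that were called, Sox1 lies at the top and Sox11 next to the bottom of the 6, and Sox14, without a read, lies between Sox2 and Sox21. Whether the CpG count relates to the calls was not tested.

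**Figure D5:**
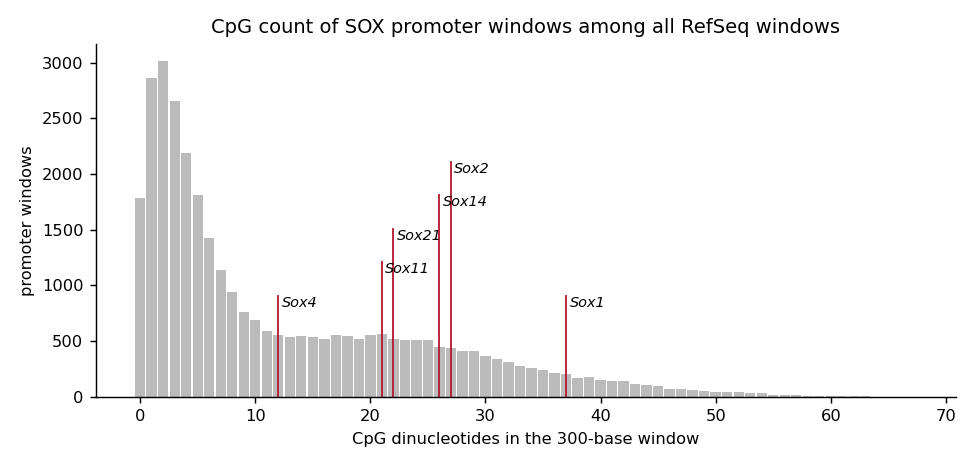
Histogram of the number of CpG dinucleotides in 32851 RefSeq promoter windows of 300 bases, with red lines at the 6 SOX genes that have a window. All 6 lie above the median of 7, from 12 for Sox4 to 37 for Sox1.

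The genes whose profile over the 12 libraries lay closest to a member were found by the root mean square difference of centred log2 CPM among 14681 genes, as a description without a test. For Sox11 they were Timp3 (0.14), Rmdn3 (0.14) and Stat3 (0.16), beside a median of 0.94 over all genes. For Sox1 the closest were Pdzrn3 (0.39), Sfrp1 (0.41) and Dach1 (0.42) beside a median of 1.01, so that no gene followed Sox1 as closely as Timp3 followed Sox11. Sox21 lay closest to Fbxl12, Adamts7 and Mxi1 (0.13 to 0.14), Sox4 to Lrrc4b, Ell and Vat1 (0.09 to 0.12) and Sox9 to Bcl9, Pcdh1 and Npdc1 (0.17 to 0.18). All profiles share the libraries and their litters.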

How the data were processed

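RNA was sequenced from 12 libraries with a stranded total RNA kit. After trimming, the authors used Salmon 0.8.2 for quantification (the labels also list STAR and DESeq2, with mm10/GRCm38). The deposited files give estimated counts and, per the file headers, TPM for 141862 transcripts, and whether Salmon used the strand is not given in the sources used here. The deposited tables of the authors' own comparisons (fold changes and p-values) were not used. Transcripts were summed to 55536 GENCODE vM21 genes, with 0 unmatched, and rounded. Counts (17403893 to 66546052 a library) were tested with edgeR 4.0.16 (R 4.3.3): TMM, filterByExpr, quasi-likelihood fit on 4 group means over all 12 libraries, Benjamini-Hochberg over 18995 genes, threshold 0.05. The test was checked on simulated data. CPM are TMM-scaled, and intervals and limits from 0 counts (3 counts) cover counting error only. Intervals of folds are 95% intervals of the fit.

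The members, the gene lists and the tests were chosen with earlier results of these data known. The named genes are the 10 members, genes annotated over them, the 3 genes closest in profile to each member of at least 1 CPM (those of Sox2 are not reported here), and, from each fixed list, up to 4 called genes by mean CPM; other genes named, such as Dcx, Sox10, Flt1 and Pdgfra, were named as list members after their values were seen.

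Labels give replicate numbers 1 to 3 in each group. Deviations of same-numbered libraries from their group means correlated at 0.438 or more (IFN-γ + EZH2i against IFN-γ) and 0.44 or more (against EZH2i), so the numbers were taken to pair these libraries. For replicate 2 they correlated at as little as 0.0329 (EZH2i against Ctr) and 0.0725 (IFN-γ against Ctr). Replicates 1 and 3 gave 0.378 and 0.454 in the former and 0.427 and 0.491 in the latter. A low value for 1 number does not show that the libraries are unpaired. Alternatives were RLE factors, DESeq2 1.42.0, no filter, at least 10 counts in every library, the replicate block, length-scaled TPM, the 6 libraries compared alone, and each library left out.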

Additional observations from a re-analysis of the deposited data

How the results depend on the processing

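Sox11 was called in both comparisons of IFN-γ under all 19 alternatives (log2 fold change 1.65 to 1.79 against Ctr and 1.72 to 1.84 after the inhibitor). Sox1 in IFN-γ + EZH2i against EZH2i was called under 15 of 19 (1.25 to 2.03, adjusted p 4.55e-04 to 0.0904). RLE factors moved the median of all genes by at most 0.015.

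The replicate block called 1 member (Sox1) in IFN-γ + EZH2i against IFN-γ (main 0), and 3 (Sox1, Sox4 and Sox11) in both comparisons of IFN-γ (main 1 against Ctr and 2 after the inhibitor). In IFN-γ against Ctr the numbers were not taken as pairs, because the smallest same-number correlation was 0.0725. Every library there still correlated best with its own number, unlike in EZH2i against Ctr, so whether these libraries are paired is not settled. For IFN-γ against Ctr the block gave adjusted p = 0.0251 for Sox1 (log2 fold change 1.09) and 0.0335 for Sox4 (-0.38). Over all genes it called 771 (EZH2i against Ctr, main 77), 748 (IFN-γ + EZH2i against IFN-γ, main 67), 4032 (IFN-γ against Ctr, main 1663) and 3661 (IFN-γ + EZH2i against EZH2i, main 1533). Under it the interaction estimate changed sign for Sox21 (0.007) and Sox7 (-0.154). It changed no other member's call.

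For EZH2i against Ctr, all genes called numbered 331 with DESeq2, 121 without a filter, 29 with at least 10 counts in every library, 50 with length-scaled TPM and 33 with the 6 libraries alone. For IFN-γ + EZH2i against IFN-γ they numbered 281, 11, 30 and 7 with DESeq2, at least 10 counts, length-scaled TPM and the 6 libraries. The cause was not tested. The interaction called 0 genes with edgeR and DESeq2 (127 and 135 at an unadjusted p under 0.05).

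Leaving out each library in turn gave 11 to 83 and 10 to 65 genes called for the inhibitor without and with IFN-γ, 1111 to 1710 and 1078 to 1566 for IFN-γ without and with the inhibitor, and 1 to 2 members called in either comparison of IFN-γ, where Sox1 was also called against Ctr without replicate 2 of Ctr (log2 fold change 1.59, adjusted p = 0.0475). It changed the sign of small estimates that were never called. In EZH2i against Ctr these ran over -0.28 to 0.007 for Sox2, -0.408 to 0.192 for Sox4 and -0.31 to 0.05 for Sox9. In IFN-γ + EZH2i against IFN-γ these ran over -0.246 to 0.03 for Sox2, -0.39 to 0.022 for Sox21, -0.453 to 0.044 for Sox4, -0.075 to 1.406 for Sox7 and -0.509 to 0.52 for Sox9. In IFN-γ against Ctr these ran over -0.147 to 0.129 for Sox2, -0.098 to 0.307 for Sox21, -0.393 to 1.284 for Sox7 and -0.221 to 0.413 for Sox9. In IFN-γ + EZH2i against EZH2i these ran over -0.125 to 0.163 for Sox2, -0.11 to 0.193 for Sox21, -0.301 to 0.816 for Sox7 and -0.163 to 0.686 for Sox9. In the interaction these ran over -0.004 to 0.136 for Sox11, -0.126 to 0.163 for Sox2, -0.261 to 0.151 for Sox21, -0.427 to 0.207 for Sox4, -0.833 to 0.857 for Sox7 and -0.374 to 0.655 for Sox9.

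As TPM, the Sox11 ratio was 1.06, 3.83 and 2.97 for EZH2i against Ctr, IFN-γ against Ctr and IFN-γ + EZH2i against EZH2i (CPM 0.868, 3.34 and 3.44), and the Sox21 ratio 1.12 for EZH2i against Ctr (CPM 0.914). Depth limits Sox7, Sox14, Sox17 and Sox18.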
